A study of Mus musculus with 4 samples.

Results

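The sarcomere filament and Z-disc genes described here are 43 named genes that encode the contractile and scaffold proteins of striated muscle, with the myosin heavy chains left out. They were taken from the deposited count table by gene symbol, on the condition that the 4 counts of a gene were not all 0. All 43 met that condition, out of 17880 features with a count in any library. The members and the comparison lists were chosen with earlier results of these data known. Member shares set beside those of all features are therefore descriptive only. The libraries came from C2C12 myotubes, the multinucleated cells that this mouse myoblast line forms by fusion. Vehicle or 1 µM dexamethasone was given for 2 h to myotubes that were, in both groups, steroid-deprived; dexamethasone is a synthetic glucocorticoid. There were 2 libraries per group, titled as replicates 1 and 2. The RNA is labelled as nascent RNA from the chromatin of nuclei. Because the labels name both a total RNA and an mRNA kit, and intron reads were not measured here, the share of nascent transcripts in the counts was not tested. C2C12 is an established cell line and nothing in the labels says whether the replicates were separate cultures, so the spread between them may be technical.

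A sarcomere is the repeating unit of the myofibril. Thin filaments of actin, tropomyosin, troponin and nebulin are anchored at the Z-disc, thick filaments of myosin are joined at the M-band, and the giant protein titin runs from the Z-disc to the M-band. In muscle, calcium binding to troponin C lets myosin pull on actin. Fast, slow and cardiac forms of these proteins are encoded by separate genes, and cultured myotubes express several of them together. Glucocorticoids are known to cause loss of muscle protein over days, and the comparison asks what is seen in these genes at an early time.

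Promoter sequences stand in RefSeq on build GRCm38.p6 for 33 of the 43 genes, with 38 start sites in all, each covering 250 bases before and 50 bases after the start. Promoters of 5 genes are printed because the results turn on them: Ckm for a large difference between replicate numbers, Mylpf for a large replicate difference with ratios above 0 by treatment, Acta1 as the thin filament gene of the highest level per kilobase, Ankrd2 for treatment groups that do not overlap, and Obsl1 for the opposite replicate difference. They lie at chr7:19410844-19411143 on the plus strand, chr7:127211358-127211657 on the plus strand, chr8:123894726-123895025 on the minus strand, chr19:42035777-42036076 on the plus strand and chr1:75506403-75506702 on the minus strand, in that order. Each is written 5′ to 3′ along its gene, and capitals mark matches to the motifs searched on both strands.
Ckm: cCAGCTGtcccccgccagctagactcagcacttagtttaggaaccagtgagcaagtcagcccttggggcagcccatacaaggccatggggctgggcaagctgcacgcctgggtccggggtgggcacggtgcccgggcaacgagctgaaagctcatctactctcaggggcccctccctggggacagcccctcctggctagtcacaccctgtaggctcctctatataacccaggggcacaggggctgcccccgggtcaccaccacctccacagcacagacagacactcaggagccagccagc
Mylpf: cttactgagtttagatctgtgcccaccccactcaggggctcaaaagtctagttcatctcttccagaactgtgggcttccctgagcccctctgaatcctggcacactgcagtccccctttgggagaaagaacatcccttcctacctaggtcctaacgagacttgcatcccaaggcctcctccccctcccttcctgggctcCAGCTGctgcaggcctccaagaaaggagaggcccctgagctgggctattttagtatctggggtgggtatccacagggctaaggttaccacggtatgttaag
Acta1: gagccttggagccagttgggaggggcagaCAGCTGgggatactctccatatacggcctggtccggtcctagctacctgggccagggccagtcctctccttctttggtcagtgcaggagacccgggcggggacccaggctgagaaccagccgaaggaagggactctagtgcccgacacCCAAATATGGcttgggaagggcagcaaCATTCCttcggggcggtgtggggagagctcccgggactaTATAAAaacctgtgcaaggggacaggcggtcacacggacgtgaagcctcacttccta
Ankrd2: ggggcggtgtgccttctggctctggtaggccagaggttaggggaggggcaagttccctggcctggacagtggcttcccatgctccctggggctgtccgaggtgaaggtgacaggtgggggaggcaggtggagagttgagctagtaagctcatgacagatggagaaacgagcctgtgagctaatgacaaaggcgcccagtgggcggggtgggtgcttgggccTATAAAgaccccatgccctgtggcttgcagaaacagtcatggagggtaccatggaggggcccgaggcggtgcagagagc
Obsl1: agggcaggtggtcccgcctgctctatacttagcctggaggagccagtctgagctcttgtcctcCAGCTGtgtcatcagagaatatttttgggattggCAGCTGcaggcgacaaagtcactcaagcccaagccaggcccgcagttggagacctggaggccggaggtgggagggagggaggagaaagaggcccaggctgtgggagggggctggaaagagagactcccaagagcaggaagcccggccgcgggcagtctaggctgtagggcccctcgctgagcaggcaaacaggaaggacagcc
The motifs were the CArG box of serum response factor, the MEF2 site, the E-box CAGCTG bound by myogenic factors, CATTCC of the TEAD factors, TATAAA, and the palindrome of the glucocorticoid receptor, which is AGAACA, 3 bases of any kind and TGTTCT. A MEF2 site can overlap TATAAA. The CArG box was present in 5 of the 38 member promoters, from 4 genes (Acta1, Actc1, Ldb3 and Myom1), or 13.2%, against 1.63% of all 32851 promoters in the table. The MEF2 site was in 4 (Myom3, Myoz2, Ttn and Xirp2; 10.5% against 3.19%), CAGCTG in 14 (36.8% against 16.3%), CATTCC in 10 (26.3% against 14.7%) and TATAAA in 7 (18.4% against 13.6%). The receptor motif was in none of the member promoters and in 3 of all promoters. These are matches of letters in a short window and were not tested.

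The total gene count ran from 19631435 to 88596296 per library, and the replicate 2 libraries were deeper than the replicate 1 libraries of the same treatment. The 43 genes took up 12.95% of all counts in vehicle replicate 1 (12.94% to 12.97%, Wilson interval at 95%), 5.53% of vehicle replicate 2 (5.52% to 5.54%), 12.33% of dexamethasone replicate 1 (12.32% to 12.34%) and 5.35% of dexamethasone replicate 2 (5.35% to 5.36%). Intervals cover counting error only, since the labels name no molecular identifiers. Titin left out, vehicle had 1.74% and 1.09% and dexamethasone 1.87% and 1.15%. All 10 differentiated myotube markers examined, among them Myog, Mymk and Chrna1, had counts in the libraries. The 12 markers of cycling or undifferentiated myoblasts together reached 56.0 to 74.0 CPM (the count scaled to a common library total, with totals adjusted by TMM), against 3341 to 5453 for the 10 myotube markers. The 9 fibroblast and matrix markers summed to 2434 to 3163 CPM with Lum and Thy1 listed at 0, and the 5 smooth muscle markers to 63.7 to 105 CPM with Acta2 and Tagln listed at 0. The 6 cardiac markers summed to 4.05 to 13.2 CPM and the 4 adipocyte markers to 0.896 to 1.40 CPM.

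Levels were compared between genes only per kilobase of annotated exon, as the mean over the 4 libraries. Titin (Ttn, ENSMUSG00000051747) stood first at 668 CPM per kb. Next were the essential light chain Myl1 at 381, the thick filament protein gene Mybph at 336, the fast regulatory light chain Mylpf at 272, skeletal alpha-actin Acta1 at 253 and fast troponin T, Tnnt3, at 232 CPM per kb. The lowest levels were those of fast myosin binding protein C, Mybpc2, at 0.237, the Z-disc gene Cmya5 at 1.15, the tropomodulin Tmod4 at 1.66 and the calsarcin gene Myoz1 at 4.74 CPM per kb. The median of the 43 genes was 45.7 and that of all features tested 4.50 CPM per kb. Whether reads in introns were counted is not given in the sources used here, which bears on any level per exon length.

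**Figure D1:**
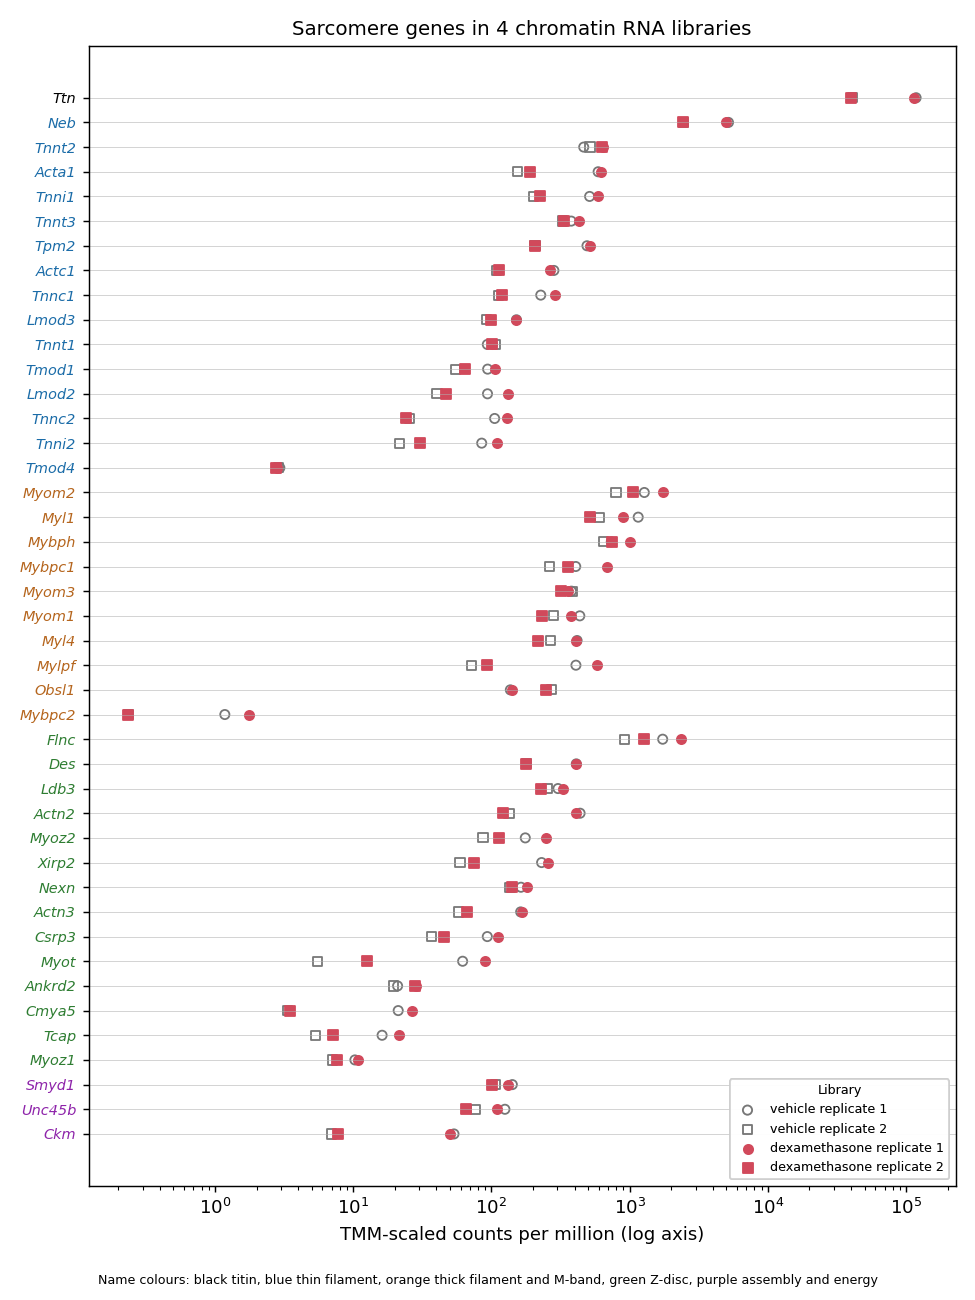
TMM-scaled CPM of the 43 genes (log axis) in each of 4 libraries, grouped by role, with open grey symbols for vehicle, filled red symbols for dexamethasone, circles for replicate 1 and squares for replicate 2. In most genes the circles and squares stand apart and the colours lie together; Ttn lies near 118082 and 113312 CPM in the replicate 1 libraries and near 41054 and 39928 CPM in the replicate 2 libraries.

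Dexamethasone was compared with vehicle to see which of these genes differ after 2 h of hormone. No member passed the threshold in the fit on treatment group alone. Titin, nebulin, desmin, alpha-actinin 2 and muscle creatine kinase had log2 fold changes between -0.10 and -0.01, and in most members the difference was smaller than its standard error. By edgeR's quasi-likelihood test with Benjamini-Hochberg adjustment (two-sided, group only) 0 of 43 members were higher and 0 lower at an adjusted p under 0.05, against 0.0376% higher and 0.0% lower among 13285 features tested. At an unadjusted p under 0.05 in edgeR there were 2 members, Ankrd2 and Tnnt2, which is 4.65% of the members against 5.78% of all features. DESeq2's Wald test and limma-voom also called 0 members, with 1 and 2 at an unadjusted p under 0.05. A further fit added the replicate number as a block, although the labels do not say what libraries of the same number share. It called 13 members higher (30.2% against 6.87% of all features) and 2 lower (4.65% against 5.78%), or 34.9% against 12.7% in either direction. Standard errors of the log2 fold change in the group-only fit ran from 0.129 to 1.38 over the members, with a median of 0.510. These errors include the gap between replicate numbers. For Flnc the SE was 0.443 there and 0.0486 with the block, at a log2 fold change of 0.45 in both. For Ankrd2, whose replicate numbers lay close, it was 0.140 and 0.0724. Not passing in the group-only fit is therefore not read as no difference. As a reference, the known early target Klf9 differed by 1.62 (SE 0.150) and Per1 by 2.53 (SE 0.186) in the same fit, neither past the threshold over all features (edgeR adjusted p 0.117 each). Tsc22d3 differed by 2.72 (SE 0.455, edgeR adjusted p 0.213) and did not pass either. Its replicate numbers lay apart, at 65.5 and 32.8 CPM in vehicle and 405 and 240 CPM in dexamethasone. Only Fkbp5 of these reference genes passed, at 5.32 (SE 0.263, edgeR adjusted p 0.0429).

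The fitted log2 fold changes of the members had a median of 0.12, against -0.0016 for all features tested, with 28 above 0 and 15 below. Leaving out 1 library moved this median past 0 in either direction. It became 0.81 when vehicle replicate 1 was left out and 0.52 for dexamethasone replicate 2, but -0.27 for vehicle replicate 2 and -0.57 for dexamethasone replicate 1. Each of those fits leaves 1 library in a group and unbalances the replicate numbers, between which these genes differ. Treatment was therefore also compared within each replicate number, where there is 1 library per treatment and no test. The median log2 ratio of dexamethasone over vehicle was 0.15 in replicate 1 and 0.09 in replicate 2, against 0.0021 and -0.0011 over all features tested.

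Within the replicate numbers, 23 members were higher after dexamethasone in both, 11 were lower in both and 9 differed in sign. Over all features tested 34.2% were higher in both and 33.9% lower in both. A ratio of more than 0.25 on the log2 scale in both numbers (1.19-fold), a limit chosen after the values were seen, was met by 11 members in the higher direction, or 25.6%, against 9.0% of all features, and by 0 in the lower direction, against 8.89%. The 11 were Myot, Mylpf, Tnni2, Tcap, Csrp3, Myoz2, Flnc, Mybpc1, Myom2, Ankrd2 and Tnnt2, and 6 of them are Z-disc genes. Lmod2 (0.49 and 0.22) and Mybph (0.44 and 0.20) lay just outside. So did Myl1 (-0.37 and -0.22) and Myom1 (-0.22 and -0.27) in the lower direction. The 10 differentiated myotube markers had medians of 0.10 and -0.05, and 0 of them were past 0.25 in both in either direction. Mymk (0.24 and 0.26) and Cav3 (0.24 and 0.30) lay just outside. Markers of other cell types also differed within the numbers, with none called by edgeR. The only adipocyte marker tested, Cebpa, was at 0.54 and 0.63, on 16 and 27 counts in vehicle and 38 and 105 in dexamethasone. Of the 7 fibroblast and matrix markers with counts, 4 were below -0.25 in both (Col1a1, Col1a2, Dcn and Fn1, the latter at -0.27 and -0.41) and 2 above 0.25 (Pdgfra, and Postn at 3.40 and 2.59), with medians of -0.27 and -0.41, and their sum was 2817 and 3163 CPM in vehicle and 2724 and 2434 CPM in dexamethasone, with Lum and Thy1 listed at 0. Among the 12 myoblast markers Pax7 was at -0.83 and -0.77 and Bub1 at 0.35 and 0.59. No other of the 12 was past 0.25 in both, and their medians were 0.01 and 0.23. The sum was 73.1 and 74.0 CPM in vehicle and 56.0 and 64.9 CPM in dexamethasone. The lower sum after dexamethasone came mostly from Pax7, the marker of the highest level in each library, and was not shared by the list. The part of all these markers in the members' ratios was not tested. With library size alone as the scaling, 9 members were past that limit in the higher and 2 in the lower direction. Across the 43 genes the ratio in replicate 1 and the ratio in replicate 2, which come from separate libraries, had a Pearson's r of 0.714, against 0.596 across all 13285 features; genes are not independent replicates.

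**Figure D2:**
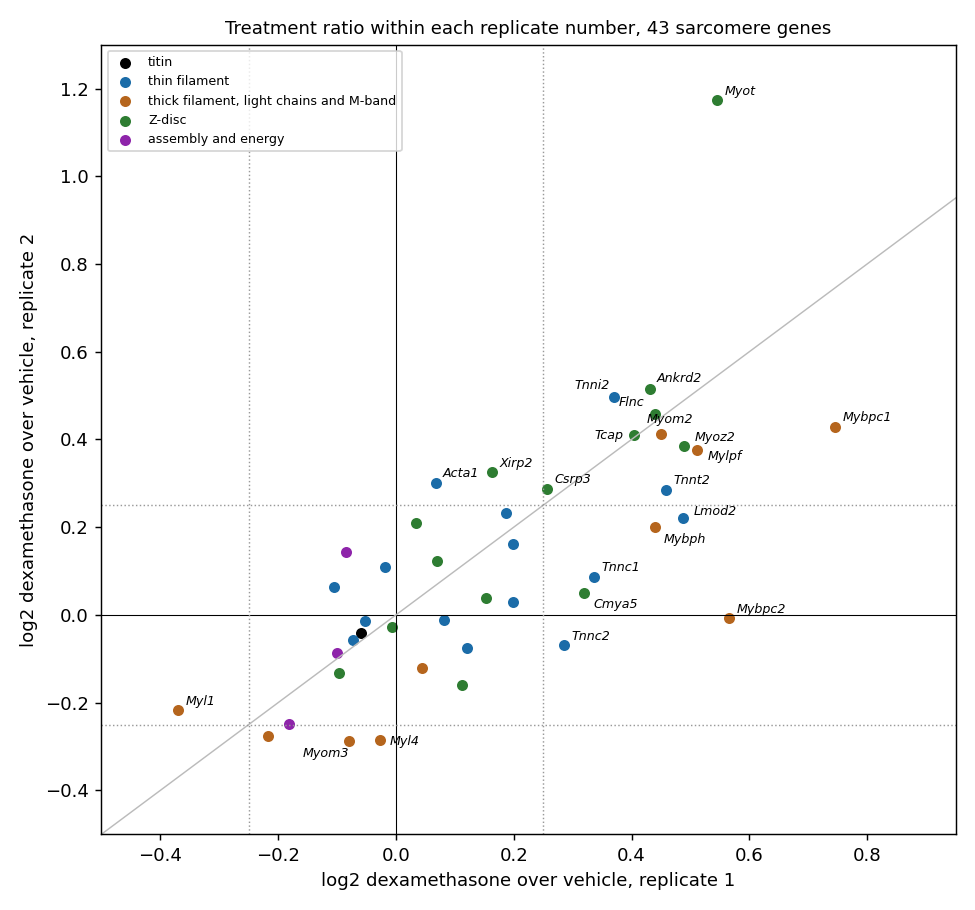
Log2 ratio of dexamethasone over vehicle in replicate 1 (horizontal axis) and in replicate 2 (vertical axis), 1 point per gene coloured by role; the grey line marks equal ratios and dotted lines mark 0.25 in either direction. In the upper right, 11 genes exceed 0.25 in both numbers, and no gene is below -0.25 in both.

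Of the 14 Z-disc genes 6 had a ratio above the limit of 0.25 in both numbers. This compares with 3 of the 10 thick filament, light chain and M-band genes and 2 of the 15 thin filament genes. Titin and the 3 assembly and energy genes had 0, and differences between roles were not tested. Ankrd2 (ENSMUSG00000025172), which encodes a stretch-responsive ankyrin repeat protein, had 21.0 and 19.5 CPM in vehicle replicates 1 and 2 and 28.3 and 27.9 CPM in dexamethasone replicates 1 and 2. The higher 2 libraries were those with dexamethasone, and the replicate numbers lay close together. The group means were 20.2 ± 1.04 and 28.1 ± 0.30 CPM (SD, n = 2 each). On the log2 scale the fold change was 0.47 (SE 0.140, edgeR unadjusted p 0.0229, adjusted p 0.606). The filamin gene Flnc (ENSMUSG00000068699), an actin cross-linker, had 1734 and 918 CPM in vehicle and 2351 and 1262 CPM in dexamethasone replicates 1 and 2. Its groups overlapped because of the gap between replicate numbers, but the ratio within them was nearly the same, at 0.44 and 0.46. Myoz2, a calsarcin that binds calcineurin at the Z-disc, had 176 and 86.9 CPM in vehicle and 247 and 113 CPM in dexamethasone replicates 1 and 2, with ratios of 0.49 and 0.38. Telethonin, encoded by Tcap and a cap of titin's Z-disc end, had 16.2 and 5.35 CPM in vehicle and 21.4 and 7.12 CPM in dexamethasone, with ratios of 0.40 and 0.41. The muscle LIM protein gene Csrp3 went with 93.4 and 37.0 CPM in vehicle and 112 and 45.2 CPM in dexamethasone, at 0.26 and 0.29. Myotilin, Myot (ENSMUSG00000024471), an alpha-actinin partner, had the least even ratios, 0.55 and 1.17. It had 61.9 and 5.53 CPM in vehicle and 90.4 and 12.5 CPM in dexamethasone replicates 1 and 2, so its replicate 1 libraries were far above its replicate 2 libraries under either treatment. The other 8 Z-disc genes had log2 fold changes from -0.10 (Actn2) to 0.29 (Cmya5) by treatment in the fit over both numbers, with Actn3, Des, Ldb3, Myoz1, Nexn and Xirp2 between them.

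Among thick filament, light chain and M-band genes the direction within replicate numbers was mixed. Myom2 (ENSMUSG00000031461), a myomesin that cross-links myosin at the M-band, had 1277 and 798 CPM in vehicle and 1746 and 1063 CPM in dexamethasone replicates 1 and 2, with ratios of 0.45 and 0.41. Its relative Myom1 (ENSMUSG00000024049) had 436 and 280 CPM in vehicle and 375 and 231 CPM in dexamethasone, with ratios of -0.22 and -0.27. The 2 genes therefore lay on opposite sides of 0 in both numbers. In the GENCODE M21 annotation, exons of Myom1 share bases with the antisense gene Myl12a, as do those of Mybph with Adora1, Tmod1 with Tstd2 and Tnnc2 with Ube2c, and Ckm, Cmya5, Des, Mybpc1, Mybpc2, Myl4, Neb, Ttn, Unc45b and Xirp2 also have an antisense partner. Nexn shares 287 bases with a gene on its own strand. Whether counting used the strand is not given in the sources used here, so reads in the shared bases cannot be told apart. Where a partner was counted, its own counts were low for some genes, at 0 to 5 for Ckm, 4 to 29 for Des and 13 to 56 for Tnnc2. They were higher for others, at 106 to 485 for Mybph, 873 to 4522 for Tmod1 and 1449 to 6479 for Myom1. Slow myosin binding protein C, Mybpc1 (ENSMUSG00000020061), had 407 and 264 CPM in vehicle and 683 and 356 CPM in dexamethasone, with ratios of 0.75 and 0.43. Mybph, a shorter relative of that protein, had 737 and 647 CPM in vehicle and 999 and 743 CPM in dexamethasone. Its dexamethasone libraries both exceeded its vehicle libraries, at means of 871 ± 181 and 692 ± 63.6 CPM (SD, n = 2 each). Mylpf had 409 and 71.4 CPM in vehicle and 583 and 92.8 CPM in dexamethasone, with ratios of 0.51 and 0.38. Myl1 (ENSMUSG00000061816) was lower in both numbers, with 1153 and 601 CPM in vehicle, 892 and 517 CPM in dexamethasone, and ratios of -0.37 and -0.22. Myl4, the embryonic and atrial essential light chain, was at -0.03 and -0.29, Myom3 at -0.08 and -0.29, and Obsl1, an obscurin relative that binds myomesin, at 0.04 and -0.12. Mybpc2 rested on 22 and 9 counts in vehicle and 53 and 22 counts in dexamethasone, too few to place its ratios of 0.57 and -0.01.

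Of the 15 thin filament genes, cardiac troponin T, Tnnt2 (ENSMUSG00000026414), had groups that did not overlap and close replicates. It had 465 and 518 CPM in vehicle and 640 and 631 CPM in dexamethasone replicates 1 and 2, or 491 ± 36.8 and 635 ± 6.53 CPM (SD, n = 2 each). Its log2 fold change was 0.37 (SE 0.133, edgeR unadjusted p 0.0429, adjusted p 0.800). Fast troponin I, Tnni2, the inhibitory subunit, had 85.1 and 21.6 CPM in vehicle and 110 and 30.5 CPM in dexamethasone, with ratios of 0.37 and 0.50. Lmod2, a leiomodin that starts actin filaments, had 93.7 and 40.4 CPM in vehicle and 131 and 47.0 CPM in dexamethasone. Acta1 (ENSMUSG00000031972) had 592 and 154 CPM in vehicle and 620 and 190 CPM in dexamethasone, with ratios of 0.07 and 0.30. The pointed-end cap gene Tmod4 had 2.95 and 2.90 CPM in vehicle and 2.80 and 2.78 CPM in dexamethasone, a difference of -0.07 (SE 0.247) on the log2 scale. The remaining 10 (Actc1, Neb, Tpm2, Tnnt1, Tnnt3, Tnni1, Tnnc1, Tnnc2, Lmod3 and Tmod1) had fitted log2 fold changes from -0.06 (Actc1) to 0.26 (Tnnc1). For titin the ratios were -0.06 and -0.04. In the chaperone gene Unc45b, which folds myosin, they were -0.18 and -0.25, in the methyltransferase gene Smyd1 -0.10 and -0.09, with 142 and 108 CPM in vehicle and 132 and 101 CPM in dexamethasone, and in Ckm, the muscle creatine kinase, -0.08 and 0.14. Counting all members, the groups did not overlap in 3 genes higher after dexamethasone (Mybph, Ankrd2 and Tnnt2), or 6.98%, against 15.0% of all features, and in 2 lower (Myom3 and Tmod4), or 4.65%, against 12.9%.

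The members differed more between replicate numbers than between treatments. Because the labels give no meaning to the numbers, this describes the libraries and not a condition. Both replicate 2 libraries lay below both replicate 1 libraries in 36 members, or 83.7%, against 31.8% of all features tested, and above them in 1, or 2.33%, against 32.1%. By edgeR's quasi-likelihood test (replicate number only, two-sided) 25 members were lower in replicate 2 at an adjusted p under 0.05, or 58.1%, against 5.8% of all features, and 1 was higher, against 3.85%. In either direction that is 26 members, or 60.5%, against 9.65%, and at an unadjusted p under 0.05 it is 36 members, or 83.7%, against 34.7%. With library size alone as the scaling, the median of all features moved to 0.19 and their calls split into 1890 higher and 568 lower, against 512 and 770 here; 24 members were then called and their median was -0.88. The median log2 fold change of the members was -1.07, against 0.0059 for all features. Without dexamethasone replicate 1 the test called 3 members, Ckm, Cmya5 and Tnnc2, and it called 0 when any other library was left out. In these 4 fits 1 library stands alone for its number and is assumed to vary like the others; at an unadjusted p under 0.05 by edgeR, 30 to 37 members were lower and 1 was higher. Medians in them stayed between -1.15 and -0.96. The replicate difference in the vehicle libraries and that in the dexamethasone libraries had a Pearson's r of 0.975 across the 43 genes, against 0.734 across all features. Depth moves with the replicate number within each treatment, and its part in the difference was not tested.

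Myot had the widest gap, with a log2 difference of -3.06 (SE 0.470, edgeR adjusted p 0.0421). Ckm (ENSMUSG00000030399), which binds the M-band and regenerates ATP, had 53.6 and 50.6 CPM in the replicate 1 libraries and 6.98 and 7.72 CPM in the replicate 2 libraries, vehicle first, a log2 difference of -2.82 (SE 0.0976, adjusted p 0.00817). Cmya5 (myospryn, a desmin and dysbindin partner) had 21.2 and 26.4 CPM against 3.37 and 3.49 CPM. Mybpc2 and Mylpf followed at -2.65 and -2.59. In the thin filament, 11 of 15 genes were lower in replicate 2, led by fast troponin C, Tnnc2, at -2.24 (SE 0.127) and Tnni2 at -1.90, and including Acta1, Lmod2, Tnni1, Tpm2, Actc1, Tnnc1, Neb, Tmod1 and Lmod3. Of the 14 Z-disc genes 8 were lower (Myot, Cmya5, Xirp2, Actn2, Tcap, Actn3, Csrp3 and Des). Of the 10 thick filament, light chain and M-band genes 3 passed the test as lower (Mybpc2, Mylpf and Myl4), although in 7 both replicate 2 libraries lay below both replicate 1 libraries, and the median of the role was -0.73; differences between roles were not tested. These, with Ttn, Unc45b and Ckm, make up the 25. The one gene higher in replicate 2 was Obsl1 (ENSMUSG00000026211), with 137 and 141 CPM in replicate 1 and 271 and 249 CPM in replicate 2, a log2 difference of 0.90 (SE 0.0815, adjusted p 0.0294). At the other end, Tmod4 (-0.02, SE 0.151), Tnnt2 (0.05, SE 0.199) and Ankrd2 (-0.06, SE 0.241) had the smallest differences. The replicate difference had a Spearman's rho of 0.161 with exon length and 0.057 with level per kilobase across the 43 genes.

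Further members called between the numbers had narrower gaps, with values given here as vehicle and dexamethasone of replicate 1 against vehicle and dexamethasone of replicate 2. Tnnc2 had 106 and 129 CPM against 25.4 and 24.2 CPM. Slow troponin I, Tnni1, had 513 and 589 against 203 and 226 CPM, and slow and cardiac troponin C, Tnnc1, had 228 and 287 against 112 and 119 CPM. Beta-tropomyosin, Tpm2, which lies along the thin filament, had 492 and 520 against 207 and 205 CPM. Cardiac actin, Actc1, the form of developing muscle, had 283 and 263 against 109 and 114 CPM. Nebulin, Neb, the thin filament ruler, had 5189 and 5002 against 2443 and 2419 CPM, the smallest of these gaps in the thin filament apart from Tmod1 and Lmod3. The capping gene Tmod1 had 93.9 and 107 against 55.2 and 64.9 CPM, and Lmod3 had 152 and 150 against 92.8 and 100 CPM. At the Z-disc, Actn2 had 438 and 410 against 134 and 122 CPM and its fast fibre relative Actn3 163 and 167 against 58.0 and 67.1 CPM; both cross-link actin. The actin-binding Xirp2 had 231 and 258 against 59.2 and 74.2 CPM. Desmin, Des, the intermediate filament around Z-discs, had 411 and 409 against 180 and 177 CPM. Myl4 had 417 and 409 against 267 and 219 CPM, and Unc45b had 125 and 110 against 77.2 and 65.0 CPM. In each of these genes the gap between numbers exceeded the gap between treatments.

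**Figure D3:**
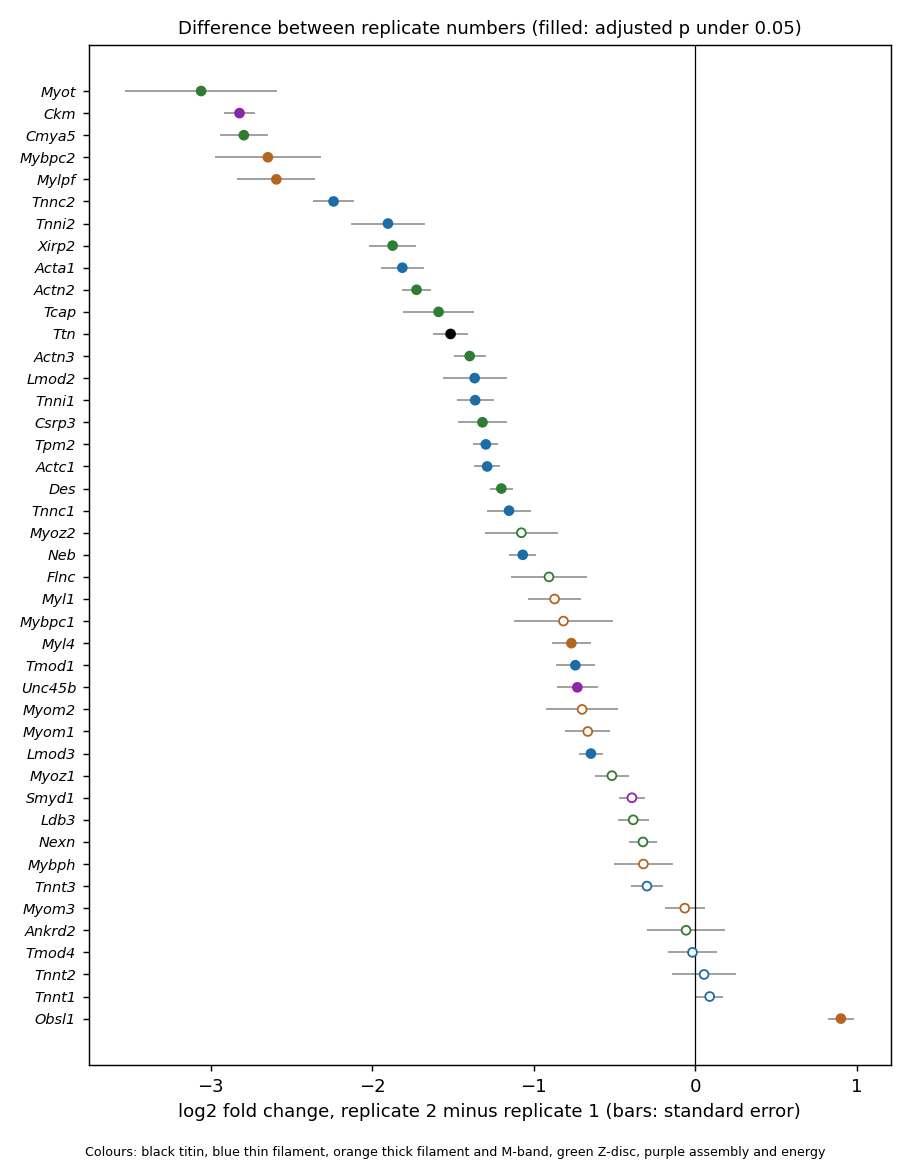
Log2 fold change of replicate 2 over replicate 1 for each of the 43 genes, coloured by role, with bars for the standard error and filled points where the edgeR adjusted p was under 0.05. From Myot at -3.06 to Neb at -1.07 all but Myoz2 are filled, and Obsl1 at 0.90 is the filled point to the right of 0.

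Of the 10 myotube markers 4 were also lower in replicate 2 (Myog at -1.01, Mef2c at -0.85, Dmd at -0.79 and Chrna1 at -0.73, edgeR adjusted p 0.0328 to 0.0420), and their summed level was 5453 and 5276 CPM in replicate 1 against 3374 and 3341 CPM in replicate 2. Most of this sum came from Dmd and Mef2c. The other 6 markers did not pass the test, with Mymk at -0.01, Chrng at 0.04, Cav3 and Cdh15 at 0.07, Chrnd at 0.09 and Mymx at 0.54, and the median over the 10 was 0.01. Over all features tested 5.8% were called lower in replicate 2 and 3.85% higher. None of the 12 markers of cycling or undifferentiated myoblasts passed the test between numbers, and their sums were 73.1 and 56.0 CPM in replicate 1 and 74.0 and 64.9 CPM in replicate 2. The 6 cardiac markers summed to 13.2 and 11.8 CPM in replicate 1 and 5.16 and 4.05 CPM in replicate 2, with 1 called lower, and the 5 smooth muscle markers to 76.7 and 63.7 against 105 and 92.0 CPM, with none called. Their part in the replicate difference, and that of the myotube markers, was not tested. In such bulk libraries fewer cells of a type and less RNA per cell cannot be told apart.

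Ratios between members of a family were taken within each library, per kilobase, over all 15 pairs in 11 families; the pairs named were chosen after their values were seen. No test was made, since 2 libraries against 2 cannot give a two-sided exact permutation p below 0.333. In 12 of the 15 pairs the ratio separated the replicate numbers, and in 2 pairs it separated the treatments. Values in random order separate 2 against 2 with a probability of 0.333, and pairs of a family can share a gene. Pairs of a fast with a slow or broader form did not all go the same way. The fast form stood higher against its partner in replicate 1 in the troponins and in myosin binding protein C, but Actn3 over Actn2 was lower there, at 0.486 and 0.532 against 0.566 and 0.718 in replicate 2, as was Myoz1 over Myoz2, at 0.106 and 0.0792 against 0.147 and 0.123. For troponin C, Tnnc2 over Tnnc1 was 0.604 and 0.583 in replicate 1 and 0.294 and 0.264 in replicate 2, vehicle first. For troponin I, Tnni2 over Tnni1 was 0.399 and 0.449 against 0.256 and 0.324. For troponin T, Tnnt3 over Tnnt1 was 5.63 and 5.94 against 4.27 and 4.59. Mybpc2 over Mybpc1 was 0.00363 and 0.00324 against 0.00113 and 0.00083, on few counts. The treatments separated in the other comparison: Myom1 over Myom2 was 0.289 and 0.297 in vehicle replicates 1 and 2 and 0.182 and 0.184 in dexamethasone replicates 1 and 2, or 0.293 ± 0.00574 and 0.183 ± 0.00178 (SD, n = 2 each). Likewise Tnnt2 over Tnnt1 was 1.42 and 1.38 in vehicle and 1.79 and 1.77 in dexamethasone. In these 2 pairs the replicates of a group differed far less than the groups did. They were named because they separated, so this spread is no test of treatment. Per kilobase, Tnnt2 made up 17.6% and 20.8% of the troponin T level in vehicle and 20.5% and 24.1% in dexamethasone, while Tnnt3 made up 62.3% to 70.0% in the 4 libraries. These shares depend on annotated exon lengths that differ widely, 7.752 kb for Tnnt2 and 1.583 kb for Tnnt3. Without the length the order was reversed in every library. Tnnt2 had 465 and 518 CPM in vehicle and 640 and 631 CPM in dexamethasone, against 378 and 326 and 434 and 333 CPM for Tnnt3.

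**Figure D4:**
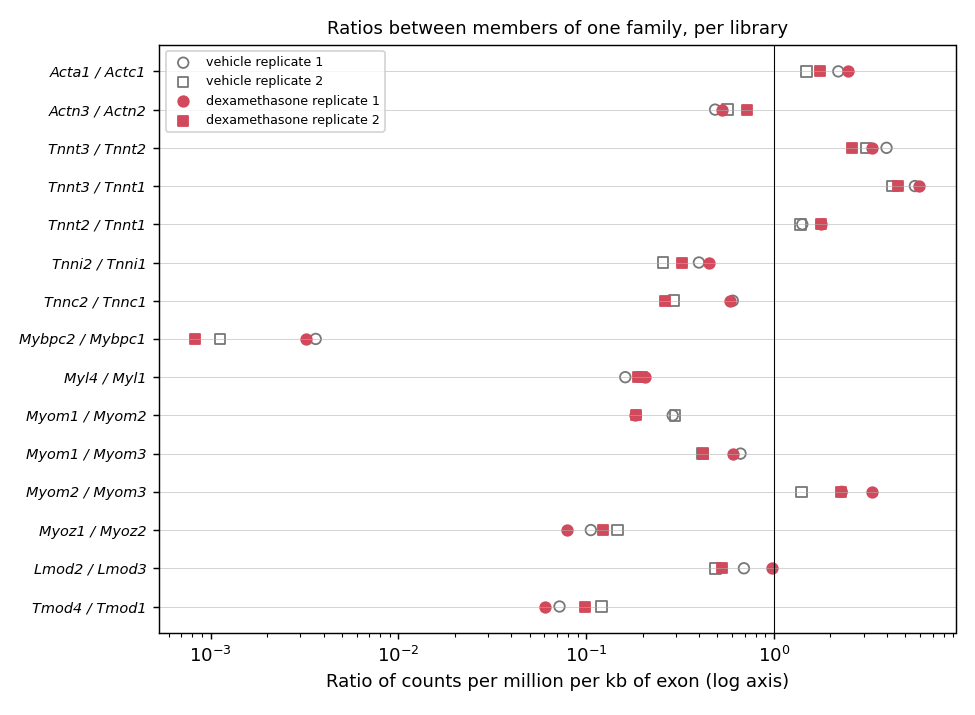
Ratio of CPM per kilobase between members of a family (log axis) in each of 4 libraries, with open grey symbols for vehicle, filled red symbols for dexamethasone, circles for replicate 1 and squares for replicate 2. Most pairs split by symbol shape; Myom1 over Myom2 (0.289 and 0.297 against 0.182 and 0.184) and Tnnt2 over Tnnt1 split by colour.

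Other genes of the same structures were read from a list of 36 outside the members. Of these, 32 had counts and 28 were tested, and 4 (Tpm1, Nrap, Ankrd1 and Xirp1) were listed at 0 in every library, which is not read as absence. By treatment 0 of 28 were called in either direction and the median log2 fold change was 0.12. Between replicate numbers 9 were lower and 1 higher in replicate 2, the latter the leiomodin relative Lmod1 at 1.79 (SE 0.153). The median replicate difference was -0.38. The highest levels per kilobase were those of Smpx at 160, Pdlim3 at 146 and Trim55 at 118 CPM per kb. Within the replicate numbers 5 were past 0.25 in both in the higher direction (Hspb7, Smpx, Cryab, Mylk4 and Trim54) and 4 in the lower (Capn3, Fhl3, Pdlim7 and Speg), while Trim55, a titin-binding ubiquitin ligase, was at -0.03 and 0.02. All 6 myosin heavy chain genes were lower in replicate 2, with a median of -2.51, and 0 of 6 were called by treatment, at a median of 0.03. Of 18 genes of excitation-contraction coupling 17 were tested; 8 were lower in replicate 2, with a median of -0.59, and 0 were called by treatment, at a median of 0.02. In that list Jph1 (0.58 and 0.50), Casq2 (0.49 and 0.45) and Atp2a1 (0.36 and 0.36) had treatment ratios above 0.25 in both numbers and Jph2 (-0.35 and -0.40) below -0.25. Over all features tested 5.8% were called lower and 3.85% higher in replicate 2. By treatment 9.0% of all features were above 0.25 in both numbers and 8.89% below -0.25. The 3 sets are given side by side, and differences between them were not tested.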

How the data were processed

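Chromatin-bound nuclear RNA from C2C12 myotubes was sequenced in 4 libraries, 2 per treatment, grouped and numbered by their titles. The deposited table holds unnormalized counts of reads for each gene; per the submitters' processing notes the build was mm9 and the tools were TopHat2 2.0.13, SAMtools 1.1, HTSeq 0.6.1 and DESeq2 1.18.1. The annotation and the use of introns and strand are not given in the sources used here, and the labels name both a total RNA and an mRNA kit. Of 23333 rows, 51 that repeat a symbol and its counts were used once. Features were filtered with filterByExpr (minimum count 10, minimum total 15), scaled by TMM and tested with edgeR 4.0.16 in R 4.3.3 with Benjamini-Hochberg adjustment over all 13285; fits were tested on simulated data. Log2 ratios within a replicate number have a prior count of 2. Exon lengths (GENCODE M21, GRCm38) matched 99.5% of features on the Ensembl identifier and served as lengths only. Groups were compared by treatment and by replicate number, with limma 3.58.1, DESeq2 1.42.0, other scalings and filters, a replicate block and each library left out as alternatives. Members and lists were chosen with earlier results of these data known. Values were given per library for members called with or without the block, those of extreme replicate difference or level in a role, and Ttn, with others named after seeing their values.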

Additional observations from a re-analysis of the deposited data

How the results depend on the processing

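The labels do not say that a replicate number marks a shared culture or day, and there are only 2 pairs; replicate differences in the vehicle and dexamethasone libraries had a Pearson's r of 0.734 across 13285 features. With the replicate number as a block, which leaves 1 residual degree of freedom, 1681 features differed by treatment and 15 of 43 members did: 13 higher (Ankrd2, Csrp3, Flnc, Lmod2, Mybpc1, Mybph, Mylpf, Myom2, Myot, Myoz2, Tcap, Tnni2 and Tnnt2) and 2 lower (Myl1 and Myom1). The block with a gene length correction gave 1794 features and 16 members, adding Xirp2. Ckm turned from -0.05 to 0.0081 under the block. Without the block, the 5 features called by treatment became 23 with no filter beyond 1 count, 288 with DESeq2's Wald test and 0 with limma-voom (at an unadjusted p under 0.05, limma had 540 higher, 231 lower); none of these called a member, nor did any other scaling. Mybpc2 was -0.0012 under limma-voom. Leaving out a library gave 4 to 193 called features, 0 members and medians of -0.57 to 0.81.

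Between replicate numbers, 1282 features were called (512 higher, 770 lower), 2458 with library size only (1890 higher, 568 lower), 2578 with DESeq2's Wald test and 5884 with treatment as a term. Member calls were 24 to 38 over the alternatives with all libraries. With library size only the median of all features moved to 0.19 and that of the members to -0.88; with no filter the latter was -1.04. Ankrd2 was 0.13 and Tmod4 0.17 with library size only, and Tmod4 0.012 with no filter. Leaving out a library gave 0 to 38 called features, 0 to 3 members and medians of -1.15 to -0.96.

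The counts of members past 0.25 in both numbers were chosen after seeing the data. They were 23 higher and 11 lower past 0, 6 higher past 0.4 and, with library size only, 2 lower. The cause of these changes was not tested.

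Over fits without a library, which unbalance the numbers, treatment values ran from -1.95 to 2.05 for Ckm, -0.75 to 0.23 for Myl1, -0.62 to 0.12 for Myom1, -0.29 to 0.12 for Smyd1, -0.99 to 0.90 for Ttn, -0.96 to 1.39 for Acta1, -1.79 to 2.14 for Cmya5, -0.52 to 1.08 for Csrp3, -0.50 to 1.14 for Lmod2, -1.52 to 1.98 for Mybpc2, -1.36 to 2.24 for Mylpf, -1.41 to 3.21 for Myot, -0.57 to 1.41 for Tcap, -0.79 to 1.70 for Tnni2, -0.063 to 0.98 for Flnc and -0.20 to 1.05 for Myoz2. Replicate differences ran from -0.043 to 0.019 for Tmod4, -0.16 to 0.32 for Tnnt2 and -0.33 to 0.19 for Ankrd2. Depth limits Mybpc2, with 9 to 53 counts.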
